A study of Mus musculus with 35 samples.

Results

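The matrix metalloproteases and their tissue inhibitors were followed in podocytes of mice with mutations in the LIM domains of Lmx1b, the transcription factor affected in nail-patella syndrome. The 10 members were chosen by name and comprise 4 matrix metalloproteases (Mmp2, Mmp14, Mmp15 and Mmp23), 3 tissue inhibitors of metalloproteases (Timp1, Timp2 and Timp3) and 3 proteases of the ADAMTS family (Adamts1, Adamts4 and Adamts5). All 10 were found among the 33292 gene identifiers of the table. Podocytes were collected from 3 genotypes, Lmx1b+/lox, Lmx1bH77L/lox and Lmx1bC118F/lox, where H77L lies in the first LIM domain and C118F in the second. The control genotype is labelled WT, but each of the groups carried 1 floxed allele, an rtTA transgene active in podocytes, a tetO::Cre transgene and the mTmG reporter. Doxycycline at 2 mg/ml in the drinking water led to Cre synthesis in podocytes and hence to the loss of the homeodomain exons of the floxed allele, so that the control podocytes kept 1 intact Lmx1b allele and the knock-in podocytes only a mutant one. The mice were 7 to 10 weeks of age, and beginning with doxycycline they received intraperitoneal injections every other day of bortezomib, a proteasome inhibitor, at 0.3 μg/g or of its solvent DMSO. Green fluorescent podocytes were sorted on day 7, and the RNA of each of the 35 mice was sequenced separately, from 6 mice in each group except the bortezomib-treated Lmx1bC118F/lox mice with 5. The groups are called +/lox, H77L and C118F below, with the treatment added.

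Matrix metalloproteases are zinc-dependent enzymes that cleave collagens, laminins, proteoglycans and many cell surface proteins, and they are made as inactive precursors. Mmp14 and Mmp15 are anchored in the membrane, and Mmp14 is the classical activator of the gelatinase Mmp2, a step in which Timp2 serves as the adaptor between both enzymes. The TIMPs bind to the active site of the enzymes, with Timp1 and Timp2 being soluble and Timp3 being held in the matrix. Members of the ADAMTS family lack a membrane anchor and cleave large proteoglycans such as versican and aggrecan, with Timp3 as their main inhibitor. In the glomerulus podocytes rest on a basement membrane that they produce and remodel together with the endothelium, and an altered balance of proteases and inhibitors is a known feature of glomerular injury.

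The measured quantity is the abundance in TPM (transcripts scaled to a fixed total), which is corrected for gene length and sums to 1000000 in each mouse. The reads behind it, recovered from the steps of the values, numbered between 5268815 in replicate 2 of the bortezomib-treated C118F mice and 24148463, with a median of 19166309 and a second-lowest value of 14037659. All 12 podocyte markers found in the table had a median above 1 TPM in all 6 groups. Their summed TPM ranged from 23133 to 37897 in the DMSO-treated +/lox mice, from 5776 to 10239 in the H77L mice and from 5380 to 12478 in the C118F mice. Under DMSO 9 of the 12 fell in each knock-in line, while 1 rose in H77L and 0 in C118F podocytes. Of the 12 markers of mesangial cells, pericytes and fibroblasts, the sum ranged from 158 to 271 TPM in 5 DMSO-treated +/lox mice, and it was 1045 in replicate 1. This mouse also had a sum of 461 TPM for 12 leukocyte markers, against 5.20 to 83.9 in the remaining 5, and it is set apart below. It was not the only library with transcripts of other cells. The sum of 10 tubule markers was 1619 TPM in replicate 2 of the DMSO-treated +/lox mice, against 28.6 to 289 in the others of that group. It was 764 TPM in replicate 2 of the bortezomib-treated +/lox mice and 691 TPM in replicate 5 of the DMSO-treated H77L mice. Replicate 1 of the DMSO-treated C118F mice had 2166 TPM of renin (Ren1), a juxtaglomerular product, and 205 TPM of summed endothelial markers, against 18.5 to 59.9 in the other mice of the group. Differences were tested with limma on log2(TPM + 1) over all genes above 1 TPM in every mouse of at least 1 group, and a member was called when its p, adjusted by the Benjamini-Hochberg method over all genes tested, was under 0.05.

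Timp2, Timp1, Mmp2 and Adamts4 were more abundant in both knock-in lines than in +/lox podocytes under DMSO as well as under bortezomib. Mmp23 and Timp3, which with Timp2 are the abundant members, differed little, with a fall called in 1 line each under DMSO, and Adamts5 was barely detected. Of the 8 members tested, 5 rose and 1 fell in DMSO-treated H77L podocytes, where 44.8% of 10964 genes were called in either direction. In DMSO-treated C118F podocytes 4 rose and 1 fell, beside 30.4% of 10899 genes. Under bortezomib 5 rose and 1 fell among 8 members in H77L podocytes (23.6% of genes called), while 5 of 9 rose and 0 fell in C118F podocytes (27.5% of genes called). The median log2 fold change of the members tested was 1.07, 0.98, 0.75 and 0.68 in these 4 comparisons, and that of all genes tested lay between -0.06 and 0.00. The lines were compared with the same +/lox mice, so that their values are not independent of each other. Mmp2 and Timp1 had DMSO-treated +/lox mice at or under 1 TPM, and under bortezomib the same applied to Mmp2, Mmp15 and Adamts4. These members therefore passed the filter only through the knock-in groups. In bulk samples, fewer cells of a type and less RNA per cell cannot be told apart.

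**Figure D1:**
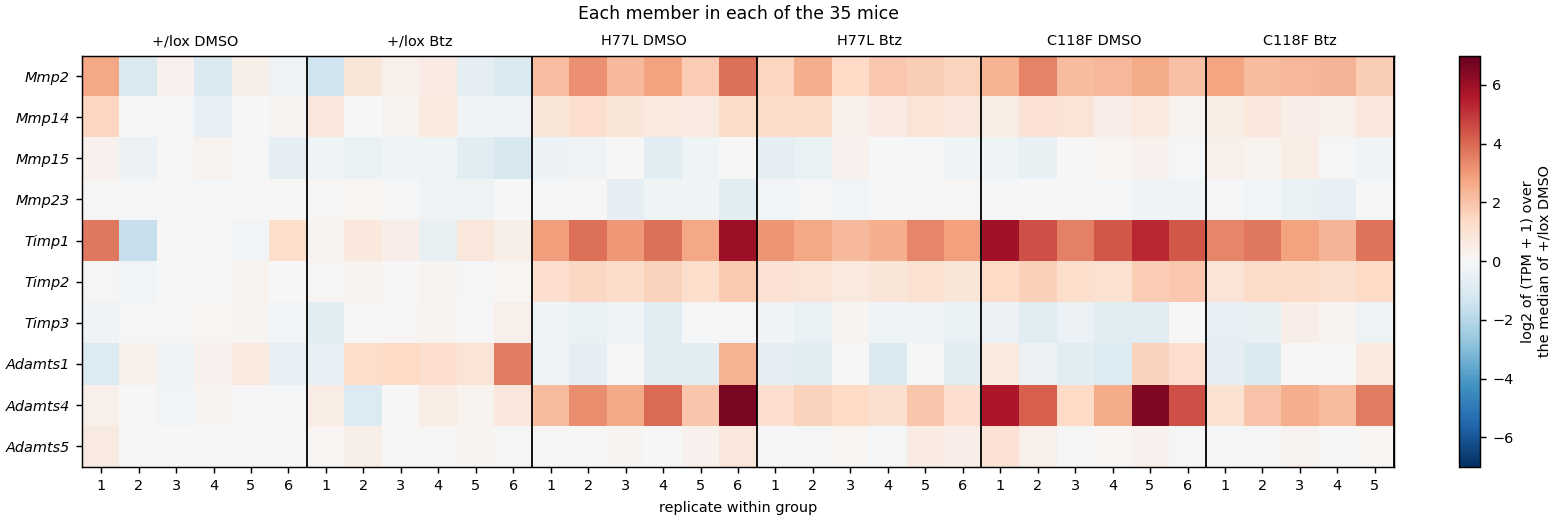
Each row is 1 member and each column 1 of the 35 mice, grouped by genotype and treatment. The colour gives the log2 of (TPM + 1) over the median of the DMSO-treated +/lox mice, red for higher and blue for lower. Mmp2, Timp1, Timp2 and Adamts4 are red in the knock-in mice, and replicate 1 of the DMSO-treated +/lox mice is red for Mmp2, Mmp14 and Timp1.

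Mmp2, a gelatinase that degrades type IV collagen and denatured collagens (ENSMUSG00000031740, GRCm39 chr8:93553902-93580049, plus strand), was close to the limit of the filter in control podocytes. In DMSO-treated +/lox mice the lowest value was 0.719 TPM, the median 2.48 and the highest 21.7. The corresponding values were 10.8, 19.8 and 50.1 TPM in H77L mice, and 13.2, 17.0 and 37.5 TPM in C118F mice. The groups overlapped only through replicate 1 of the +/lox mice, the one with the fibroblast and leukocyte transcripts, and the second-highest +/lox value was 3.68 TPM. Mmp2 rose by a log2 fold change of 2.51 (SE 0.54, limma adjusted p = 0.0020) in H77L and of 2.34 (SE 0.51, adjusted p = 0.0034) in C118F podocytes. Without replicate 1 of the +/lox mice the log2 fold changes were 3.02 and 2.85. Under bortezomib Mmp2 ranged from 0.304 to 5.27 TPM in +/lox mice, with a median of 2.34. It ranged from 8.15 to 19.4 TPM in H77L mice with a median of 9.71, and from 10.7 to 22.5 TPM in C118F mice with a median of 16.7. No bortezomib-treated knock-in mouse overlapped with a +/lox mouse, with log2 fold changes of 1.99 (SE 0.36, adjusted p = 0.00061) in H77L and 2.51 (SE 0.38, adjusted p = 0.00019) in C118F. Among all genes tested, 6.80% and 9.01% were without overlap and higher in these comparisons. Under either treatment Mmp2 passed the filter only through the knock-in mice.

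Mmp14, the membrane-anchored activator of Mmp2 (ENSMUSG00000000957, GRCm39 chr14:54668878-54682821, plus strand), showed a smaller difference. DMSO-treated +/lox mice had a lowest value of 6.38 TPM, a median of 9.80 and a highest value of 29.2, H77L mice 15.7, 18.3 and 25.5 TPM, and C118F mice 12.1, 15.5 and 20.6 TPM. Again it was replicate 1 of the +/lox mice that lay above all C118F and H77L mice, while the next +/lox mouse had 11.2 TPM. The rise was called in H77L under DMSO (log2 fold change 0.73, SE 0.26, limma adjusted p = 0.035) and under bortezomib (0.67, SE 0.21, adjusted p = 0.030). In C118F podocytes the log2 fold change was 0.47 (95% confidence interval -0.11 to 1.05, adjusted p = 0.21) under DMSO and 0.39 (-0.05 to 0.84, adjusted p = 0.17) under bortezomib. Without replicate 1 of the DMSO-treated +/lox mice Mmp14 was called in both lines, whereas leaving out any 1 of 9 other mice, all except H77L replicates 4 and 5, ended the call in the DMSO-treated H77L podocytes.

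Mmp15, a further membrane-type enzyme (ENSMUSG00000031790, GRCm39 chr8:96078895-96101708, plus strand), had between 0.237 and 2.82 TPM in all 35 mice. These levels rest on 6 to 78 reads per mouse. Under bortezomib +/lox mice had 0.237 to 1.25 TPM with a median of 1.06, and C118F mice 1.30 to 2.82 TPM with a median of 2.15, so that the groups did not overlap. Mmp15 passed the filter here only through the C118F mice, and 9.01% of all genes tested were likewise higher without overlap. The log2 fold change was 0.68 (SE 0.22, limma adjusted p = 0.031), and the call was lost when 1 of 5 mice was left out, among them replicate 2 of the C118F mice with the shallowest library (the others being C118F replicates 1 and 3 and +/lox replicates 5 and 6). Mmp15 did not pass the filter when the other groups of knock-in mice were compared with +/lox mice.

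Mmp23, an enzyme without the hemopexin domain of most relatives and released from its membrane anchor by furin-type cleavage (ENSMUSG00000029061, GRCm39 chr4:155735111-155738378, minus strand), was the most abundant of the 4 metalloproteases. It contributed 97.2% ± 2.16 (SD, n = 6) of their summed TPM in DMSO-treated +/lox mice and 91.8% ± 4.21 (n = 6) in H77L mice. DMSO-treated +/lox mice had 599 to 685 TPM with a median of 648, H77L mice 392 to 635 TPM with a median of 538, and C118F mice 530 to 641 TPM with a median of 600. The H77L mice reached both the lowest values and the range of the controls. A fall of 0.32 on the log2 scale (SE 0.11, limma adjusted p = 0.032) was called in H77L podocytes, and leaving out +/lox replicate 1, 3 or 6 or H77L replicate 3 or 6 ended it. The log2 fold change in C118F podocytes was -0.13 (95% confidence interval -0.32 to 0.06, adjusted p = 0.29), and under bortezomib it was 0.03 (-0.17 to 0.22) in H77L and -0.21 (-0.47 to 0.05) in C118F podocytes.

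**Figure D2:**
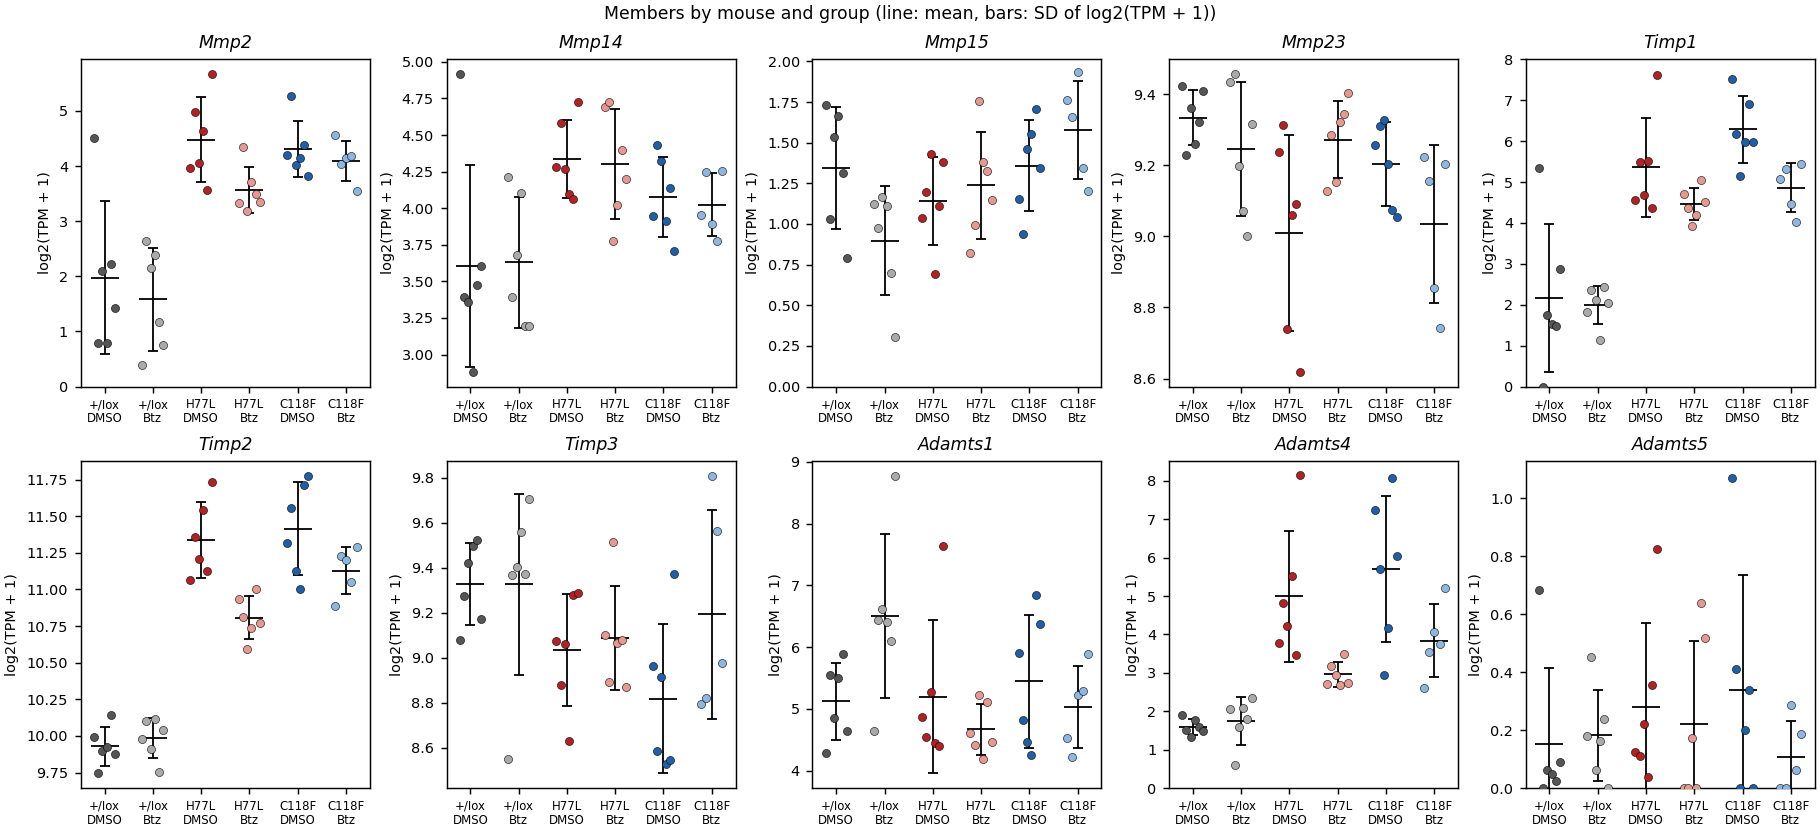
Each panel shows log2(TPM + 1) of 1 member, with 1 point for each mouse, the line at the group mean and bars of 1 SD. The vertical axes differ between panels and begin at 0 for Mmp2, Mmp15, Timp1, Adamts4 and Adamts5 only. For Timp2 all knock-in mice lie above all +/lox mice, with a highest +/lox value of 1127 TPM and a lowest knock-in value of 1542 TPM.

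The tissue inhibitors differed in their response, and the windows around their transcription start sites are therefore given. They run from 250 bases before the start to 50 bases after it and come from RefSeq for GRCm38.p6, a build other than that of the expression table, in a table that held 7 of the 10 members. The motif GGGCGG (the core of a GC box), the motif TGANTCA (the AP-1 consensus), its variant TGAGTAA and the homeodomain core TAATTA were searched on both strands, and matches are in capitals. No match of one motif overlapped with a match of another in these 3 windows.
Timp1, chrX:20869916-20870215, plus strand: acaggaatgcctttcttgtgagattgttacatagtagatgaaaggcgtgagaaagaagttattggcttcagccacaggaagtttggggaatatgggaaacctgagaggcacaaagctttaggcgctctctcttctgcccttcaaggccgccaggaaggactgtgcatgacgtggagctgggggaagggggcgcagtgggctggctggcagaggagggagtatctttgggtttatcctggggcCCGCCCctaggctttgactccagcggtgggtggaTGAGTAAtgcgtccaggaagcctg
Timp2, chr11:118355362-118355661, minus strand: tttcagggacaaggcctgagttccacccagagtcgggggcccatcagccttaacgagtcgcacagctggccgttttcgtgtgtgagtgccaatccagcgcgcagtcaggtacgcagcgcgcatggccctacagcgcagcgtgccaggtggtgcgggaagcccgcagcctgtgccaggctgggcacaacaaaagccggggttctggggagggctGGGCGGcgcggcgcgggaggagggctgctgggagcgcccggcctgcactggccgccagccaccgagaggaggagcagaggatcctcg
Timp3, chr10:86300162-86300461, plus strand: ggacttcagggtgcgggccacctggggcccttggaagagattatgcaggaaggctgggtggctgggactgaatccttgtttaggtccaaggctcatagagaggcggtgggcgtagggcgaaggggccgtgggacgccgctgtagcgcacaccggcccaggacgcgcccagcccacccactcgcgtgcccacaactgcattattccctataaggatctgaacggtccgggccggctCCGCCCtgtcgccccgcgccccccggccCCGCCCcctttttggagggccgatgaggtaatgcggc
GGGCGG occurred once in the windows of Timp1 and Timp2 and 2 times in that of Timp3, and it is present in 35.7% of all 32851 windows. TGAGTAA occurred only in the window of Timp1, 26 bases past the start, and it is present in 2.68% of all windows. TGANTCA (7.81% of all windows) and TAATTA (5.29%) had no match in the 8 windows of the members, which says only that these letters are not there.

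Timp1, a soluble inhibitor that is widely induced in injured tissue (ENSMUSG00000001131, GRCm39 chrX:20736316-20740976, plus strand), had the widest differences of the 3. In DMSO-treated +/lox mice it was listed at 0 in replicate 2, had a median of 2.12 TPM and reached 39.4 TPM in replicate 1. H77L mice ranged from 19.5 to 196 TPM with a median of 34.2, and C118F mice from 34.7 to 183 TPM with a median of 66.4. Apart from replicate 1, where the markers of fibroblasts and leukocytes were high, the +/lox mice did not exceed 6.34 TPM and stayed below every knock-in mouse. Timp1 rose by a log2 fold change of 3.21 (SE 0.74, limma adjusted p = 0.0030) in H77L and of 4.13 (SE 0.68, adjusted p = 0.00036) in C118F podocytes. Leaving out replicate 1 of the +/lox mice gave 3.84 and 4.76, and leaving out the highest H77L mouse, replicate 6, gave 2.75 in that line. The highest C118F mouse was replicate 1, the one with the renin and endothelial transcripts. With any 1 mouse left out, the value in C118F podocytes ranged from 3.69 to 4.76. Under bortezomib +/lox mice had 1.21 to 4.36 TPM with a median of 3.23, H77L mice 14.3 to 32.4 TPM with a median of 20.8 and C118F mice 15.2 to 42.4 TPM with a median of 32.8. There was no overlap with +/lox mice in either line, as for 6.80% and 9.01% of all genes, which were higher without overlap. The log2 fold changes were 2.48 (SE 0.23, limma adjusted p = 7.4e-07) and 2.88 (SE 0.28, adjusted p = 3.8e-06). The Timp1 gene lies within Syn1 on the opposite strand, and Syn1 had a median of 19.0 TPM and at most 28.7 TPM. Whether the reads were counted by strand is not given, so that reads of this pair cannot be told apart.

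Timp2, the inhibitor that also takes part in the activation of Mmp2 (ENSMUSG00000017466, GRCm39 chr11:118191887-118246566, minus strand), was the most abundant member in every group. DMSO-treated +/lox mice had 857 to 1127 TPM with a median of 962. H77L mice had 2143 to 3405 TPM with a median of 2496, and C118F mice 2047 to 3508 TPM with a median of 2778. Every knock-in mouse was above every +/lox mouse, which applied to 11.0% of all genes in H77L and to 6.48% in C118F podocytes. The log2 fold change was 1.41 (SE 0.12, limma adjusted p = 7.5e-07) in H77L and 1.48 (SE 0.15, adjusted p = 3.2e-06) in C118F podocytes, or 2.66-fold and 2.80-fold. Bortezomib-treated +/lox mice had 863 to 1108 TPM with a median of 1031, H77L mice 1542 to 2054 TPM with a median of 1769 and C118F mice 1890 to 2503 TPM with a median of 2347. These groups did not overlap with the +/lox mice either, as for 6.80% and 9.01% of all genes, which were higher without overlap. The log2 fold changes were 0.82 (SE 0.09, limma adjusted p = 7.0e-06) and 1.14 (SE 0.11, adjusted p = 3.6e-06).

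Timp3, the matrix-bound inhibitor with the broadest range of target enzymes (ENSMUSG00000020044, GRCm39 chr10:86136236-86185371, plus strand), did not rise in any comparison. DMSO-treated +/lox mice had 539 to 734 TPM with a median of 650, H77L mice 396 to 623 TPM with a median of 535 and C118F mice 368 to 662 TPM with a median of 432. In C118F mice 5 of 6 values were below those of all +/lox mice, and the sixth was within their range. The fall of 0.51 on the log2 scale in C118F podocytes was called (SE 0.15, limma adjusted p = 0.018), and leaving out any single mouse did not end the call. In H77L podocytes the log2 fold change was -0.29 (95% confidence interval -0.55 to -0.03, adjusted p = 0.062). Under bortezomib the values were -0.24 (-0.58 to 0.11) in H77L and -0.13 (-0.60 to 0.34) in C118F podocytes, and the C118F mice were spread from 443 to 896 TPM.

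Added up, the 3 inhibitors reached 1631 ± 139 TPM (SD, n = 6) in DMSO-treated +/lox mice, 3215 ± 554 TPM (n = 6) in H77L mice and 3332 ± 657 TPM (n = 6) in C118F mice. With bortezomib the sums were 1678 ± 197 TPM (n = 6), 2370 ± 164 TPM (n = 6) and 2889 ± 332 TPM (n = 5). The composition changed as well, with Timp2 making up 59.9% ± 2.5 of the sum in DMSO-treated +/lox mice, 81.6% ± 3.37 in H77L mice and 83.3% ± 3.22 in C118F mice. Timp3 correspondingly made up 39.5% ± 3.32, 16.8% ± 3.73 and 14% ± 2.99. The 4 metalloproteases together came to 665 ± 47.2 TPM, 567 ± 89.9 TPM and 628 ± 54.2 TPM in the same groups, and their sum was dominated by Mmp23. The ratio of the inhibitor sum to the metalloprotease sum was 2.46 ± 0.28 in +/lox, 5.85 ± 1.74 in H77L and 5.39 ± 1.45 in C118F mice under DMSO. Its ranges were 2.16 to 2.85, 4.25 to 9.0 and 3.99 to 7.60, so that both knock-in groups were above the +/lox group. Under bortezomib the ratio was 2.72 ± 0.47, 3.66 ± 0.40 and 5.26 ± 1.18, with ranges of 1.95 to 3.33, 3.17 to 4.26 and 3.72 to 6.59, so that the H77L group overlapped with the +/lox group and the C118F group did not. These are ratios of transcripts and not of proteins, and no test was run on them.

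**Figure D3:**
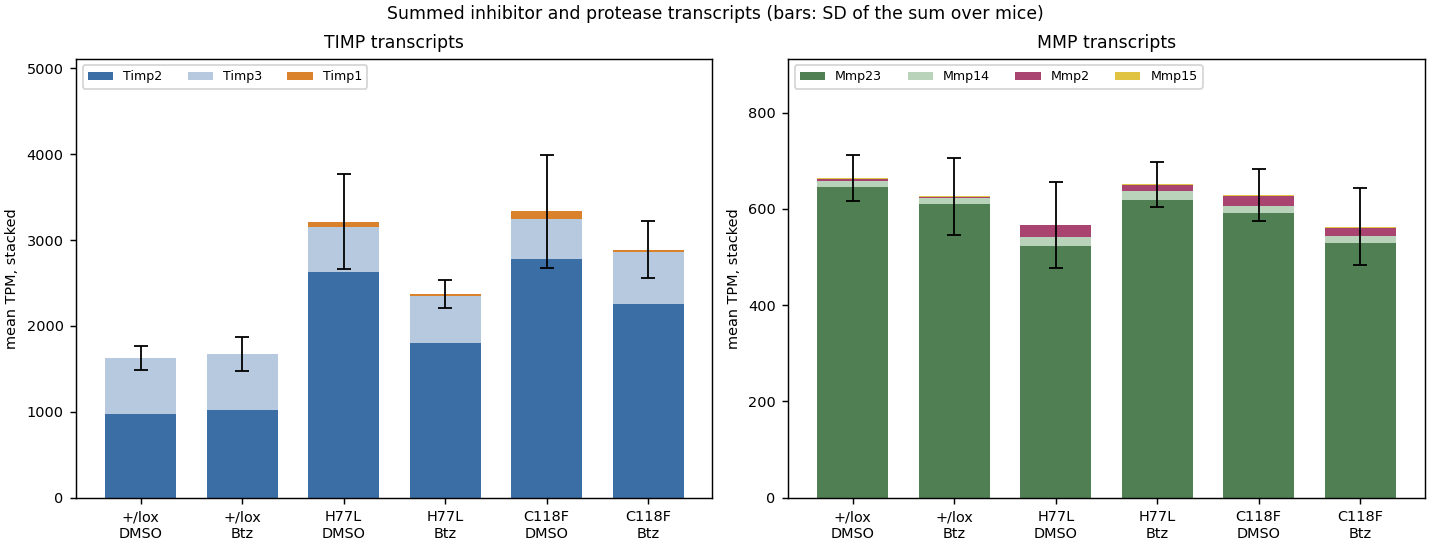
The bars give the mean TPM of the tissue inhibitors (left) and of the matrix metalloproteases (right), stacked by gene for the 6 groups, with error bars of 1 SD of the summed TPM over mice. The inhibitor sum rises from 1631 TPM in DMSO-treated +/lox mice to 3215 and 3332 TPM in the knock-in lines, mostly through Timp2, while the metalloprotease sum consists largely of Mmp23.

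Of the ADAMTS proteases, Adamts4, one of the aggrecanases (ENSMUSG00000006403, GRCm39 chr1:171077986-171089841, plus strand), changed most. DMSO-treated +/lox mice were close to each other, with a lowest value of 1.53 TPM, a median of 1.93 and a highest of 2.76. H77L mice ranged from 10.1 to 282 TPM with a median of 22.3, and C118F mice from 6.70 to 267 TPM with a median of 58.3. All knock-in mice were above all +/lox mice, which applied to 11.0% of all genes in H77L and to 6.48% in C118F podocytes. The spread within each line exceeded the gap between the groups. Adamts4 rose by a log2 fold change of 3.39 (SE 0.59, limma adjusted p = 0.00038) in H77L and of 4.09 (SE 0.65, adjusted p = 0.00028) in C118F podocytes, and without the highest H77L mouse, replicate 6, the value in that line was 2.76. Under bortezomib the medians were 2.80 TPM in +/lox, 6.17 TPM in H77L and 12.5 TPM in C118F mice, with ranges of 0.528 to 4.12, 5.45 to 10.3 and 5.13 to 36.2 TPM. Neither line overlapped with the +/lox mice, and the log2 fold changes were 1.21 (SE 0.26, adjusted p = 0.0025) and 2.09 (SE 0.40, adjusted p = 0.0012).

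Adamts1, a versican-cleaving enzyme that is rapidly inducible in many cells (ENSMUSG00000022893, GRCm39 chr16:85590579-85600009, minus strand), followed another pattern. Under DMSO +/lox mice had 18.4 to 58.1 TPM with a median of 36.2, H77L mice 20.1 to 198 TPM with a median of 25.3 and C118F mice 18.2 to 113 TPM with a median of 43.3. The groups overlapped widely, and the log2 fold changes were 0.08 (95% confidence interval -0.93 to 1.08) in H77L and 0.33 (-0.58 to 1.24) in C118F podocytes. Under bortezomib the order was different. The +/lox mice then had 24.1 to 438 TPM with a median of 84.6, H77L mice 17.2 to 36.4 TPM with a median of 22.3 and C118F mice 17.6 to 58.5 TPM with a median of 36.5. In 5 of 6 bortezomib-treated +/lox mice Adamts1 exceeded all knock-in mice under the same treatment, and replicate 1 of these +/lox mice, with 24.1 TPM, lay within their range. Adamts1 was lower in H77L podocytes by 1.83 on the log2 scale (SE 0.46, limma adjusted p = 0.0079), and by 1.37 without the highest +/lox mouse, replicate 6. In C118F podocytes the log2 fold change of -1.47 (SE 0.52) missed the threshold with an adjusted p of 0.051.

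Adamts5, the other aggrecanase (ENSMUSG00000022894, GRCm39 chr16:85653061-85698716, minus strand), lies 53051 bases from Adamts1 on the same strand. It did not exceed 1.1 TPM in any mouse, with group medians between 0.0395 and 0.207 TPM, and it did not pass the filter in any comparison. The reads per mouse numbered between 0 and 68, so that a difference was not detectable at this depth.

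**Figure D4:**
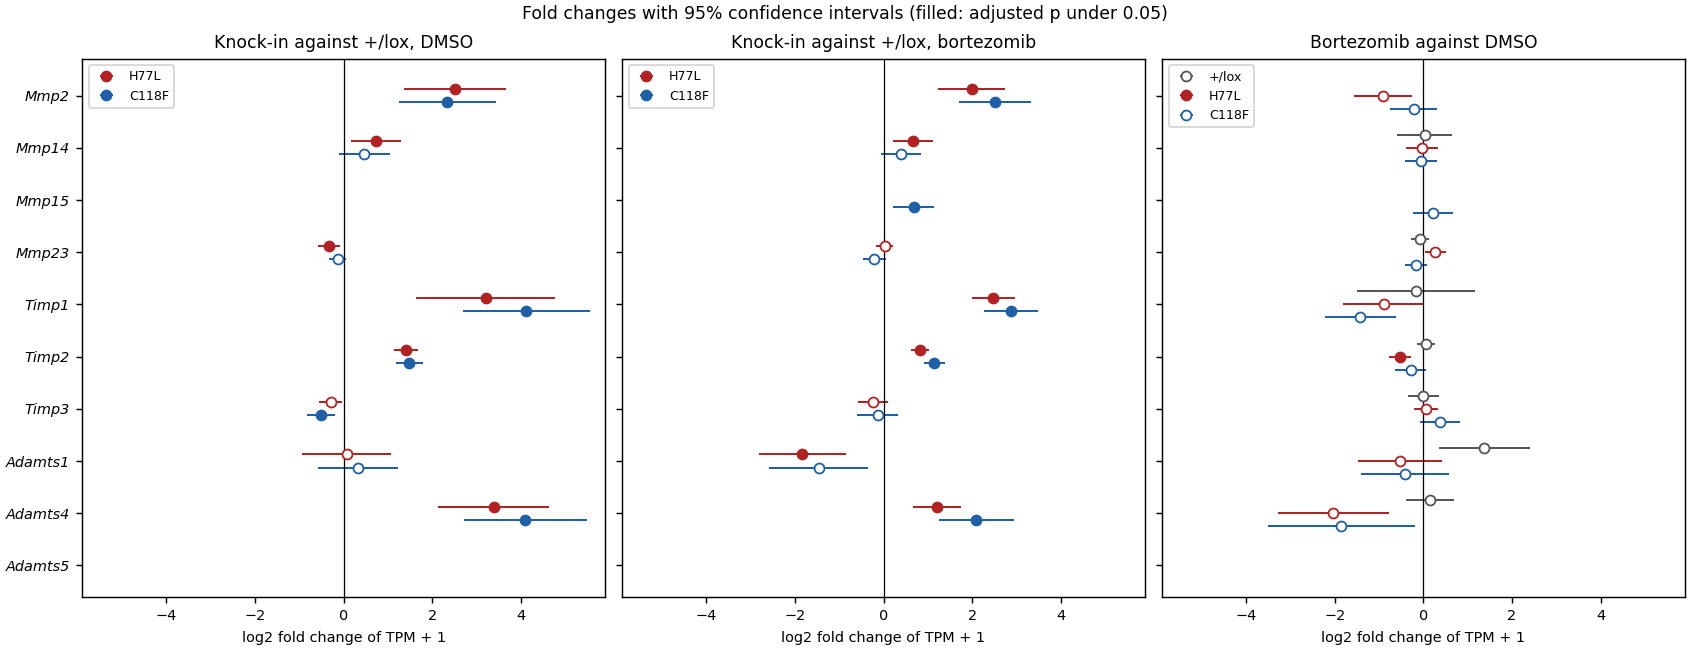
The log2 fold change of TPM + 1 is plotted for each member with its 95% confidence interval for the knock-in lines against +/lox under DMSO (left) and under bortezomib (middle), and for bortezomib against DMSO in each genotype (right). Filled points have an adjusted p under 0.05, and members without a point were not tested. Mmp2, Timp1, Timp2 and Adamts4 are to the right of 0 in the left and middle panels, and only Timp2 in H77L podocytes is filled in the right panel.

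Bortezomib against DMSO within a genotype was the next comparison, addressing whether the members respond to proteasome inhibition. In +/lox podocytes 0 of 7 members and 0% of 10659 genes were called by limma. Adamts1 was the only member with an unadjusted p under 0.05 (8.66% of genes), with a log2 fold change of 1.38 (95% confidence interval 0.34 to 2.41, adjusted p = 0.56), and limma voom on the recovered reads called 0 members. In H77L podocytes 1 of 8 members was called beside 1.16% of 10813 genes. It was Timp2, which fell by 0.53 on the log2 scale (SE 0.12, limma adjusted p = 0.044), with the highest bortezomib-treated mouse at 2054 TPM and the lowest DMSO-treated mouse at 2143 TPM. A value lower without overlap under bortezomib was found for 1.16% of the genes, and 4 members (Timp2, Adamts4, Mmp2 and Mmp23) and 20% of genes had an unadjusted p under 0.05. The call was lost without a filter, with a filter on the mean, with quantile normalization and without the intensity trend, and in 8 of 12 fits with 1 mouse left out. Adamts4 had the larger fold change in H77L podocytes, with a value of -2.03 (95% confidence interval -3.29 to -0.78) and an adjusted p of 0.085. Without replicate 6 of the DMSO-treated H77L mice both Timp2 and Adamts4 were called. In the same line the log2 fold change of Mmp2 was -0.91 (-1.56 to -0.26, adjusted p = 0.12) and that of Timp1 -0.90 (-1.82 to 0.02, adjusted p = 0.26).

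In C118F podocytes 0 of 9 members and 0% of 10814 genes were called between bortezomib and DMSO, and limma voom also called 0. The 2 members with an unadjusted p under 0.05 (5.86% of genes) were Timp1, with a log2 fold change of -1.42 (95% confidence interval -2.23 to -0.62, adjusted p = 0.69), and Adamts4, with -1.86 (-3.51 to -0.20, adjusted p = 0.81). For Timp2 the value was -0.29 (-0.64 to 0.07). These 3 intervals include the values of H77L podocytes. For Mmp2 the C118F interval was -0.75 to 0.32 and for Mmp23 -0.42 to 0.09, which do not include the H77L values of -0.91 and 0.26. The H77L intervals of -1.56 to -0.26 and 0.03 to 0.50 overlapped with them. Tested directly, the response to bortezomib in H77L minus that in C118F podocytes was called for 0 of 9 members and 0% of genes. The differences were -0.25 (-0.66 to 0.16) for Timp2, 0.52 (-0.77 to 1.81) for Timp1, -0.18 (-2.34 to 1.99) for Adamts4 and -0.70 (-1.57 to 0.18, limma adjusted p = 0.66) for Mmp2. Mmp23 was the only member with an unadjusted p under 0.05 there (7.60% of genes), at 0.43 (0.10 to 0.77, adjusted p = 0.65).

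The response in H77L minus that in +/lox podocytes was likewise called for 0 of 8 members and 0% of genes, and limma voom called 0. At an unadjusted p under 0.05, as for 18.2% of genes, were Timp2 with -0.59 (95% confidence interval -0.90 to -0.28, adjusted p = 0.081), Adamts4 with -2.18 (-3.60 to -0.76, adjusted p = 0.11), Adamts1 with -1.91 (-3.39 to -0.43, adjusted p = 0.16) and Mmp23 with 0.35 (0.05 to 0.65, adjusted p = 0.20). For C118F minus +/lox the count was 0 of 9 members and 0% of genes, again with 0 by limma voom, and 3 members and 5% of genes had an unadjusted p under 0.05. They were Adamts1 with -1.79 (-3.31 to -0.27), Adamts4 with -2.0 (-3.74 to -0.27) and Mmp15 with 0.67 (0.05 to 1.29), all with an adjusted p of at least 0.93. The lower Adamts1 in knock-in podocytes under bortezomib thus went along with higher values in the bortezomib-treated +/lox mice, and neither the rise in +/lox podocytes nor the difference of the responses passed the threshold.

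Compared with each other, the knock-in lines differed in no member beyond the threshold. Under DMSO 0 of 8 members and 0% of 10809 genes were called between C118F and H77L podocytes, 0 members and 3.85% of genes had an unadjusted p under 0.05 and limma voom called 0. The interval of the log2 difference was -0.28 to 0.43 for Timp2, -0.16 to 2.0 for Timp1, -0.88 to 0.53 for Mmp2 and -1.17 to 2.58 for Adamts4. Under bortezomib 0 of 9 members were called, beside 0.972% of 10803 genes. With unadjusted p-values under 0.05, as for 14.4% of genes, Timp2 differed by 0.32 (95% confidence interval 0.10 to 0.54, adjusted p = 0.18), Adamts4 by 0.88 (0.15 to 1.6, adjusted p = 0.25), Mmp2 by 0.52 (0.06 to 0.98, adjusted p = 0.28) and Mmp23 by -0.24 (-0.45 to -0.02, adjusted p = 0.31), with the first 3 higher in C118F mice. The groups overlapped for each of them, and limma voom called 0. The intervals for Timp1 and Adamts4 under DMSO are wide, and a missed threshold does not show that the lines are alike.

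In 2 groups a single mouse had the highest value for most members. Replicate 6 of the DMSO-treated H77L mice had the highest value of its group in 8 of 10 members, namely all except Mmp15 and Mmp23, with 282 TPM of Adamts4, 198 TPM of Adamts1 and 196 TPM of Timp1. This mouse had the lowest summed podocyte markers of the group, 5776 TPM against 7287 to 10239, and the highest sum of 6 parietal epithelial markers, 229 TPM against 98.8 to 124. Among the DMSO-treated C118F mice, replicates 1 and 5 had the highest Timp1 (183 and 119 TPM) and Adamts4 (149 and 267 TPM) and the lowest summed podocyte markers (5380 and 5827 TPM, against 7417 to 12478 in the other mice). Their parietal epithelial sums were 151 and 99.9 TPM and not the highest of the group, which ranged from 70.7 TPM to 155 TPM in replicate 2. In the +/lox group under DMSO it was replicate 1 that had the highest value in 7 of 10 members, whereas in the other groups no mouse did so in more than 5. The part of these differences in cell state or cell composition in the group comparisons was not tested. Pdgfrb, a receptor of mesangial cells and pericytes, was also higher in the knock-in lines, with 4.34 to 22.1 TPM in all +/lox mice and 64.1 to 544 TPM in all knock-in mice. The sum of all 12 markers of mesangial cells, pericytes and fibroblasts had a median of 200 TPM in +/lox, 434 TPM in H77L and 486 TPM in C118F mice under DMSO, and of 203, 312 and 290 TPM under bortezomib. Of the 4 list genes tested under DMSO, Pdgfrb and Cspg4 rose in each line. Acta2, a smooth muscle actin, had medians of 3.79, 15.3 and 41.6 TPM without being called, and reached 210 TPM in replicate 6 of the H77L and 422 TPM in replicate 1 of the C118F mice. Among the other list genes, Pdgfra, Col3a1 and Lum did not exceed 0.49, 2.64 and 4.69 TPM in the knock-in mice, and Col1a1 and Dcn did not exceed 20.8 and 13.1 TPM. The list did not rise as a whole. Of its 12 genes, 9 had a median above 1 TPM in +/lox, 6 in H77L and 6 in C118F mice under DMSO. Under bortezomib these counts were 5, 6 and 6. The 6 parietal epithelial markers had a median sum of 53.5 TPM in +/lox, 124 TPM in H77L and 105 TPM in C118F mice under DMSO. Under bortezomib the median sums were 37.6, 90.8 and 119 TPM. Both list genes tested under DMSO, Cldn1 and Pax8, rose in each line. The rise was not shared by the whole list. Of the 6 genes, 4 had a median above 1 TPM in +/lox, 3 in H77L and 2 in C118F mice under DMSO. Under bortezomib these counts were 4, 2 and 2. The part of these markers in the results of the members was not tested.

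Related genes were counted in lists that, like the members, were drawn up with earlier results of these data known, so that their counts are a description. Of 19 other matrix metalloproteases only 2 were tested against +/lox under DMSO in each line, and Mmp11 was higher in both (log2 fold change 0.83, SE 0.23, in H77L and 0.71, SE 0.22, in C118F). Of the 22 other ADAMTS and ADAMTS-like genes 5 were tested in H77L podocytes and all 5 rose, while in C118F podocytes 6 of 7 rose. The procollagen N-propeptidase Adamts2 (1.63, SE 0.23, and 0.89, SE 0.31), Adamtsl5 (1.05, SE 0.13, and 1.03, SE 0.15) and Adamts8 (1.04, SE 0.34, and 1.02, SE 0.25) rose in both lines. Among the other metzincins, the wider superfamily of zinc proteases, 3 of 5 rose in each line, which were Adam15, Bmp1 and Adam9. Adam15 had the largest of these changes, with 1.14 (SE 0.18) and 1.36 (SE 0.24).

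Of 12 tested activators, further inhibitors and clearance receptors, 5 rose and 2 fell in H77L podocytes, and 3 rose and 1 fell in C118F podocytes. Cd44, a hyaluronan receptor that docks metalloproteases to the cell surface, rose by 2.02 (SE 0.48) and 2.80 (SE 0.50). Furin, the convertase that activates membrane-type metalloproteases and Mmp23, rose by 0.79 (SE 0.13) and 0.69 (SE 0.19), and Pcolce, an enhancer of procollagen processing, fell by 0.34 (SE 0.13) and 0.40 (SE 0.12). Of 8 tested proteoglycan and glycoprotein substrates, 6 rose in H77L and 4 in C118F podocytes and 0 fell. Tenascin C (Tnc) rose by 2.71 (SE 0.63) and 2.91 (SE 0.46), biglycan (Bgn) by 1.96 (SE 0.65) and 2.23 (SE 0.63), and perlecan (Hspg2) by 0.93 (SE 0.25) and 1.38 (SE 0.26). All of these genes were called at an adjusted p under 0.05 by limma in both lines, which was the condition for naming them. For all genes tested the share higher was 22.4% in H77L and 13.7% in C118F podocytes. Under bortezomib, where 12.5% of all genes were higher in H77L and 15.1% in C118F podocytes, 3 of 5 and 5 of 6 other ADAMTS genes and 4 of 6 and 4 of 7 substrates were higher. Of the other metzincins 1 of 5 was higher and 1 lower in H77L podocytes, and 2 of 5 were higher in C118F podocytes. Of the activators, inhibitors and clearance receptors 2 of 11 were higher in H77L, and 4 of 12 were higher and 1 lower in C118F podocytes. Of the 2 other matrix metalloproteases tested 1 was higher in H77L and 0 in C118F podocytes.

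The study used stricter cutoffs against +/lox mice (a change beyond 2 on the log2 scale in either direction, at an adjusted p below 0.001). It applied them to DESeq2, a model of read counts, with shrunken fold changes. Here they were applied to the limma fit of log2(TPM + 1), so that the genes passing need not be those of the study. Few members met them in this fit. Under DMSO they were passed by Adamts4 in H77L podocytes and by Timp1 and Adamts4 in C118F podocytes, where 1.62% and 1.63% of all genes passed them with a rise. With bortezomib Timp1 passed in H77L podocytes (0.925% of genes) and Timp1 and Mmp2 passed in C118F podocytes (1.52% of genes). Timp2 had the lowest adjusted p among the members in both lines under DMSO and did not pass these cutoffs, because its fold change was below 4-fold.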

How the data were processed

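RNA of FACS-sorted green podocytes from 35 mice was sequenced by the authors from poly(A)-enriched single-end libraries. Per the labels and the methods of the study, adapters were trimmed with Trim Galore (0.6.7), reads were aligned to GRCm39 with STAR and counted per gene with featureCounts (1.6.3). Reads with several positions were placed at 1 of them at random, and whether counting used the strand is not given in the sources used here. The values deposited are TPM, and the step from counts to TPM is not given in the sources used here. Positions of genes come from GENCODE vM39 (GRCm39), where 32776 of 33292 identifiers were found.

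The TPM values were transformed to log2(TPM + 1), so that fold changes of lowly expressed genes are understated. For each of 12 comparisons, genes above 1 TPM in every mouse of at least 1 group were fitted with limma (3.58.1, R 4.3.3; lmFit, then eBayes with trend) using no mice other than those of the groups concerned, with Benjamini-Hochberg adjustment over all genes tested. Every adjusted p given is from this fit. The mice are taken as separate samples, since each has its own mouse number. Whole reads were recovered from the TPM steps for 23940 of 23943 genes (within 0.001 reads of a whole number, 99.99% of the genes), and limma voom on these reads was added as an alternative after seeing the data. Reads are not independent molecules, because libraries were amplified by PCR. For some of the comparisons the fit was also run on simulated data. In these every mouse had the gene means and spreads of the DMSO-treated +/lox mice, apart from a rise planted in a set of genes in 1 group. A wider spread within the knock-in groups, as for Adamts4, was not simulated, so that the run does not cover it. The p-values set a difference of group means against the spread between these mice, which limma estimates with the help of all genes tested.

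The 10 members and the gene lists were chosen with earlier results of these data known. All members are named. Other genes of the lists are named only when called in both knock-in lines under DMSO, with at most 3 per list by the size of the mean log2 fold change. Figures were drawn with matplotlib 3.10.9 in Python 3.11.15, and tables were made with numpy 2.4.6 and pandas 2.3.3. The alternatives were a pseudocount of 0.1, no filter, a filter on the mean over all mice, all 35 mice in 1 fit, quantile normalization, TMM factors on TPM, no intensity trend, the mouse number as a covariate and leaving out each mouse. Some items are not reported here.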

Additional observations from a re-analysis of the deposited data

Results flagged for a closer look

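Within-group values of the 10 members in the 6 groups were examined for single mice far from the rest on the log2(TPM + 1) scale, by the gap to the nearest mouse relative to the range of the group. Of the 60 sets of values 6 had such a mouse. The rate of about 1 in 20 behind this rule assumes independent sets of normally distributed values. It cannot be used as a comparison here, because the members were measured in the same mice. Replicate 1 of the DMSO-treated +/lox mice stood apart for Mmp14 with 29.2 TPM (6.38 to 11.2 in the others) and for Adamts5 with 0.605 TPM (0 to 0.0632 in the others). Replicate 6 of the DMSO-treated H77L mice stood apart for Timp1 with 196 TPM (19.5 to 44.3) and for Adamts1 with 198 TPM (20.1 to 37.6). For Timp3, replicate 1 of the bortezomib-treated +/lox mice was low with 374 TPM (659 to 834), and replicate 3 of the bortezomib-treated H77L mice was high with 731 TPM (466 to 547). The calls for Mmp14 and Timp1 without these mice are given beside their results, while for Adamts1 under DMSO and Timp3 under bortezomib, where no change was called, and for Adamts5, which was not tested, no fold change without them is given.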

How the results depend on the processing

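The direction of each of the 23 member calls was kept in all alternatives and in every fit with 1 mouse left out, and 14 of the 23 stayed past the threshold throughout. The 9 others were lost in at least 1 fit. Mmp14 and Mmp23 in DMSO-treated H77L podocytes, Mmp14 in bortezomib-treated H77L podocytes, Mmp15 in bortezomib-treated C118F podocytes and Timp2 between treatments in H77L podocytes were also lost when single mice were left out. With the mouse number as a covariate, 2 rather than 6 members were called in DMSO-treated H77L podocytes, with an adjusted p of 0.053 for Mmp2 and 0.070 for Timp1, and Adamts4 was lost in bortezomib-treated C118F podocytes (adjusted p = 0.063). Adamts4 in bortezomib-treated H77L podocytes was lost with all 35 mice in 1 fit (adjusted p = 0.18). Between bortezomib and DMSO in H77L podocytes, 0 members instead of 1 were called without a filter, with a filter on the mean, with quantile normalization and without the intensity trend. The causes were not tested. Leaving out 1 mouse at a time, the number of members called ranged from 4 to 7 for H77L and from 5 to 6 for C118F under DMSO, from 5 to 7 for H77L and from 4 to 6 for C118F under bortezomib, from 0 to 2 for bortezomib in H77L, from 0 to 1 for C118F against H77L under bortezomib (Adamts4 without replicate 1 of the C118F mice) and from 0 to 1 for the response of H77L minus that of +/lox (Timp2 without replicate 1 of the bortezomib-treated or replicate 5 of the DMSO-treated +/lox mice). The scaling alternatives moved the median log2 fold change of all genes by less than 0.1. Depth limits Mmp15 and Adamts5, with at most 78 and 68 reads per mouse. No paired analysis was possible because the labels give each mouse a number of its own and no number shared between groups.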
